A study of Mus musculus with 8 samples.

Results

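Glycolysis and hypoxia response genes were followed in whole mouse embryos at embryonic day 9.5, 4 of them homozygous for the K399A substitution in Smo (mutant) and 4 carrying wild-type Smo on both alleles (WT). Smo encodes Smoothened, the membrane protein that relays the Hedgehog signal. All embryos came from several litters of heterozygous parents, so that the germline substitution was present in every cell of a mutant; the labels name neither the strain nor the litter of an embryo. Each embryo was sequenced as its own library, and the deposited values are TPM, reads per gene length scaled to the same total in every library. The 34 genes were taken by symbol: 17 glycolytic enzymes and glucose transporters, and 17 other genes of the response to hypoxia. Of these, 33 were found under their own symbol among the 41709 symbols of the table.

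Glycolysis splits glucose into pyruvate in the cytosol, and lactate dehydrogenase turns pyruvate into lactate, which lets the pathway run without oxygen. Hypoxia-inducible factor (HIF) is a dimer whose alpha subunit, such as that encoded by Hif1a, is hydroxylated by the Egln enzymes when oxygen is present and is then destroyed. When oxygen is scarce the subunit persists and raises transcription of glucose transporters, glycolytic enzymes, vascular signals and many other genes. The mouse embryo at this stage relies heavily on glycolysis while its heart and vessels form.

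The libraries and the tissue were checked first. Counted reads, recovered from the steps between TPM values of low genes, numbered 57.73 to 59.13 M reads per mutant library and 57.82 to 58.38 M reads per WT library. The neural tube and heart muscle markers checked were above 0 in every embryo, 10 of 10 in each list. Heart muscle markers summed to 4061, 1990.0, 2551 and 2292 TPM in mutants 1 to 4 and 1670, 1943, 1336 and 1821 TPM in WT 1 to 4, so that every mutant lay above every WT embryo in this sum. By the mean log2(TPM + 1) of the same 10 markers the groups overlapped. Mutant 4 was at 6.265, below WT 2 at 6.363 and WT 4 at 6.301. The 13 transcripts of the mitochondrial genome took 5.84% to 6.58% of all TPM in mutants and 4.65% to 5.39% in WT, without overlap. Markers of primitive red cells summed to 22625 to 57879 TPM in mutants and 15903 to 54705 TPM in WT. The 21 markers of yolk sac endoderm, a tissue that surrounds the embryo, summed to 1634, 1042, 361 and 289 TPM in mutants 1 to 4 and to 126, 150, 398 and 120 TPM in WT 1 to 4, so that mutants 1 and 2 stood above all other embryos. Host transcripts of small nucleolar RNAs (10 genes) summed to 423 and 398 TPM in mutants 3 and 4, against 788 to 943 TPM in mutants 1 and 2 and 831 to 1011 TPM in WT. The 2 pairs of mutants therefore differed from each other in their libraries, and the members' fold changes were also computed with each pair alone. In whole embryos, more cells of a type cannot be told apart from more RNA per cell.

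Transcripts of glucose transporters, hexokinases, collagen hydroxylases and the vascular peptide adrenomedullin had higher means in mutants, while those of the abundant enzymes of lower glycolysis differed by at most 0.12 on the log2 scale. No member passed the test: limma on log2(TPM + 1), adjusted by Benjamini-Hochberg over all 13596 genes with at least 1 TPM in at least 4 embryos, called 0 genes (percent called 0), and the lowest adjusted p of a member was 0.270. Limma voom on the recovered reads, chosen after the data were seen, also called 0 genes. At an unadjusted p under 0.05 the tests held 1842 genes (13.5%) with TPM and 2066 with the reads. At an unadjusted p under 0.05, 7 of the 32 members tested were higher in mutants (21.9%), against 754 of all genes tested (5.55%). At the same threshold 1 of 32 was lower (3.12%), against 1088 of all genes (8.0%). The 4 mutant embryos all lay above the 4 WT embryos in 4 of the 32 members (12.5%), against 3.63% of all genes, and all lay below them in 0 members, against 3.82% of all genes. All mutants also lay above all WT embryos in 5 of 10 heart muscle markers, 6 of 10 endothelial markers and 8 of 13 mitochondrial transcripts, with median log2 fold changes of 0.64, 0.27 and 0.29; their part in the members' levels was not tested. The log2 fold change was positive for 24 of 32 members (75.0%), against 37.7% of all genes. The members vary together from embryo to embryo, so these counts are not counts of independent events, and the members were not tested as a set. They were also chosen with earlier results of these data known, and the part of that choice in these shares was not tested.

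**Figure D1:**
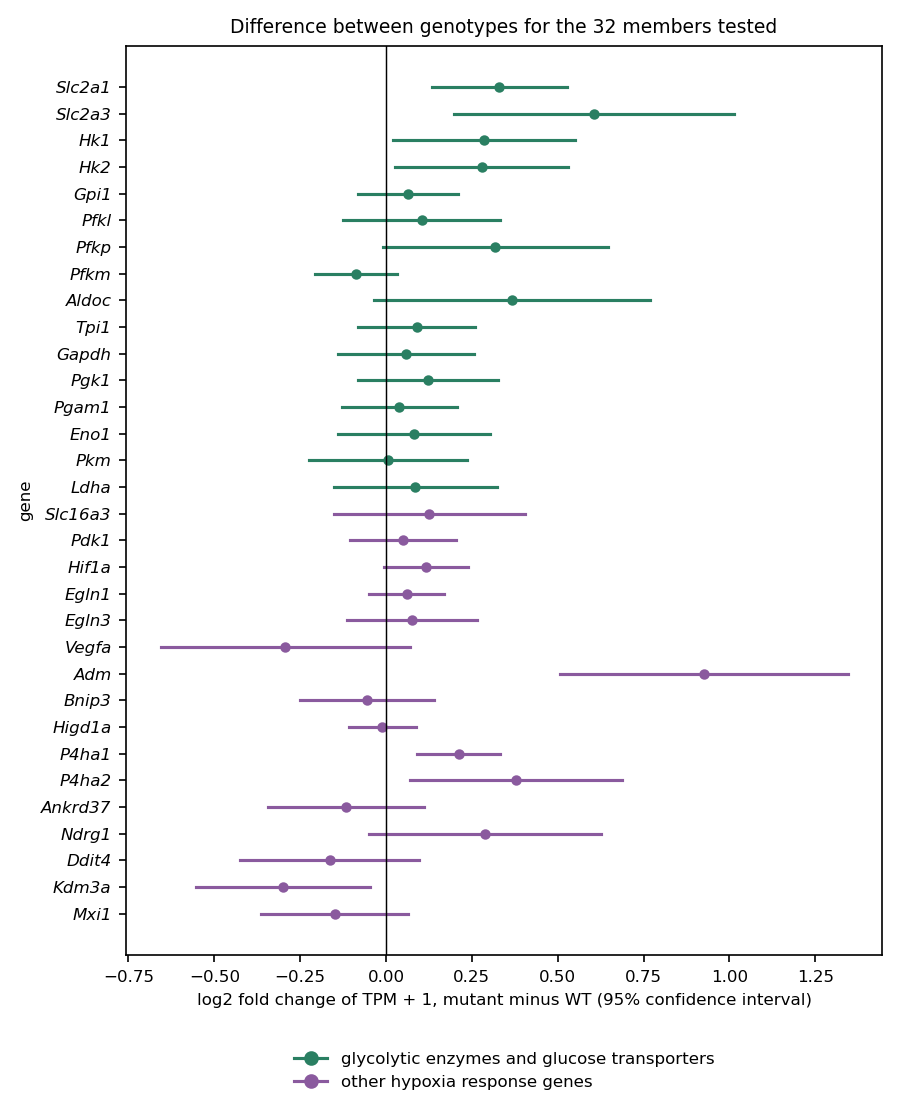
Log2 fold change of TPM + 1, mutant minus WT, with its 95% confidence interval from limma, for the 32 members tested (rows), coloured by list. Adm lies farthest to the right at 0.93, and the interval lies above 0 for Slc2a1, Slc2a3, Hk1, Hk2, Adm, P4ha1 and P4ha2 and below 0 for Kdm3a; none passed the adjusted threshold.

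The glycolytic members lay mostly on one side of 0 and the other HIF targets on both. Of 16 glycolytic members tested, 15 had a positive log2 fold change, with a median of 0.10 and a range of -0.09 to 0.61. Of 16 other targets tested, counted with Hif1a, which encodes a HIF subunit itself, 9 were positive and 7 negative. Their median was 0.06 and their range -0.30 to 0.93. The median over all genes tested was -0.05. With mutants 1 and 2 alone against WT the medians were 0.01 for glycolytic members and 0.03 for other targets, and with mutants 3 and 4 alone they were 0.21 and 0.015. Over all genes tested the medians of those fits were 0.03 with mutants 1 and 2 and -0.11 with mutants 3 and 4.

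The 4 members whose groups did not overlap were Slc2a1, Adm, P4ha1 and P4ha2, and their promoters are shown because the core of the hypoxia response element, the site bound by HIF, could be looked up there. The core was searched as ACGTG and GCGTG on both strands in the 250 bases before each RefSeq start site (build GRCm38.p6). Capitals mark the match, which reads CACGT or CACGC where the element lies on the opposite strand, and each sequence is written 5′ to 3′ along the gene. Distances are counted back from the RefSeq start site whose promoter held the match.
Adm, 90 bases before the start site (chr7:110627555-110627583, plus strand): tttagaagcaagCACGCtggagagggagg
Adm, 54 bases before (chr7:110627591-110627619, plus strand): ggcaaatctgacCACGCccaccgtccgcc
P4ha1, 163 bases before (chr10:59323121-59323149, plus strand): acgggaacggtgGCGTGgcaggagctctg
P4ha1, 126 bases before (chr10:59323158-59323186, plus strand): cactgcgtcctcGCGTGggccagcctagg
P4ha1, 16 bases before (chr10:59323268-59323295, plus strand): tgtgacagagcgCACGTagcgagggctg
Slc2a1, 61 bases before (chr4:119108672-119108700, plus strand): tccccacagaacCACGCctctcagagtcc
Slc2a1, 36 bases before (chr4:119108697-119108725, plus strand): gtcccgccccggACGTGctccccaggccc
P4ha2, 107 bases before (chr11:54100805-54100833, plus strand): tggtgccggtccCACGCggcgcaaggagg
P4ha2, 78 bases before (chr11:54100834-54100862, plus strand): tgtgcatcgcatACGTGcagcgcgtggcg
P4ha2, 69 bases before (chr11:54100843-54100871, plus strand): catacgtgcagcGCGTGgcggctcgggcc

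Promoters were at hand for 32 of the 34 genes, with 49 start sites in all. Those of Slc2a3 and Ndrg1 are not shown. ACGTG was present in 23 of the 49 (46.9%), against 21.5% of the promoters of genes tested and 16.6% of all 32851 promoters. GCGTG was present in 25 (51%), against 44.3% and 28.2%. Of the glycolytic promoters 10 of 27 held ACGTG (37%), and of those of other targets 13 of 22 (59.1%). The median share of G and C was 61.6% in the members' promoters, 60% in those of genes tested and 52.4% in all. The members, Hif1a apart, were listed as HIF targets, and several start sites belong to 1 gene. The match counts therefore describe the list, and no site is shown to be bound.

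Glucose transporters bring glucose into the cell ahead of the pathway, and both had higher means in mutants. Slc2a1 (chromosome 4, 119108711 to 119137983, GRCm38), a glucose transporter of many embryonic tissues, was at 555, 557, 596 and 706 TPM in mutants 1 to 4 and at 494, 495, 501 and 423 TPM in WT 1 to 4. Every mutant lay above every WT embryo, and WT 4 lay below the other WT embryos. Its mean was 603 ± 71.0 TPM in mutants and 478 ± 36.9 TPM in WT (SD, n = 4 each), a log2 fold change of 0.33 ± 0.09 (SE; limma adjusted p = 0.281; two-sided exact permutation p = 0.0286, the smallest that 4 against 4 allow). Every gene whose groups are separate has this exact p, so it restates the lack of overlap. Slc2a3 (chromosome 6, 122727809 to 122801640), a transporter of high glucose affinity found in neurons and trophoblast, was at 422, 292, 288 and 375 TPM in mutants and at 254, 191, 294 and 173 TPM in WT. WT 3 lay above mutants 2 and 3, so the groups overlapped. The log2 fold change of Slc2a3 was 0.61 ± 0.18 (SE; limma adjusted p = 0.288), and 0.32 with the yolk sac score in the model, a setting chosen after the data were seen. Under that covariate the log2 fold change of Slc2a1 was 0.43. With mutants 1 and 2 alone the log2 fold changes were 0.22 for Slc2a1 and 0.65 for Slc2a3, and with mutants 3 and 4 alone 0.44 for Slc2a1 and 0.56 for Slc2a3.

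The hexokinases, which trap glucose in the cell by phosphorylation, were also higher on average. Hk2 (chromosome 6, 82725025 to 82774454), the inducible form, was at 60.01, 78.9, 76.9 and 89.2 TPM in mutants 1 to 4 and at 60.1, 63.1, 69.0 and 56.8 TPM in WT 1 to 4. Mutants 2, 3 and 4 lay above every WT embryo and mutant 1 lay among them. It differed by 0.28 ± 0.11 on the log2 scale (SE; limma adjusted p = 0.341), by 0.15 with mutants 1 and 2 alone and by 0.41 with mutants 3 and 4 alone. Hk1 (chromosome 10, 62268855 to 62379908), the form most tissues carry, was at 25.4, 21.3, 27.8 and 21.9 TPM in mutants and at 16.3, 21.9, 18.4 and 21.8 TPM in WT. Mutants 1 and 3 lay above every WT embryo, and the log2 difference came to 0.29 ± 0.12 (SE; limma adjusted p = 0.345), 0.25 with mutants 1 and 2 alone and 0.33 with mutants 3 and 4 alone. The library kit named in the labels, TruSeq RNA Sample Prep v2, does not mark strand, so reads of Hk1os, an antisense gene at a mean of 0.807 TPM, cannot be told from those of Hk1.

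**Figure D2:**
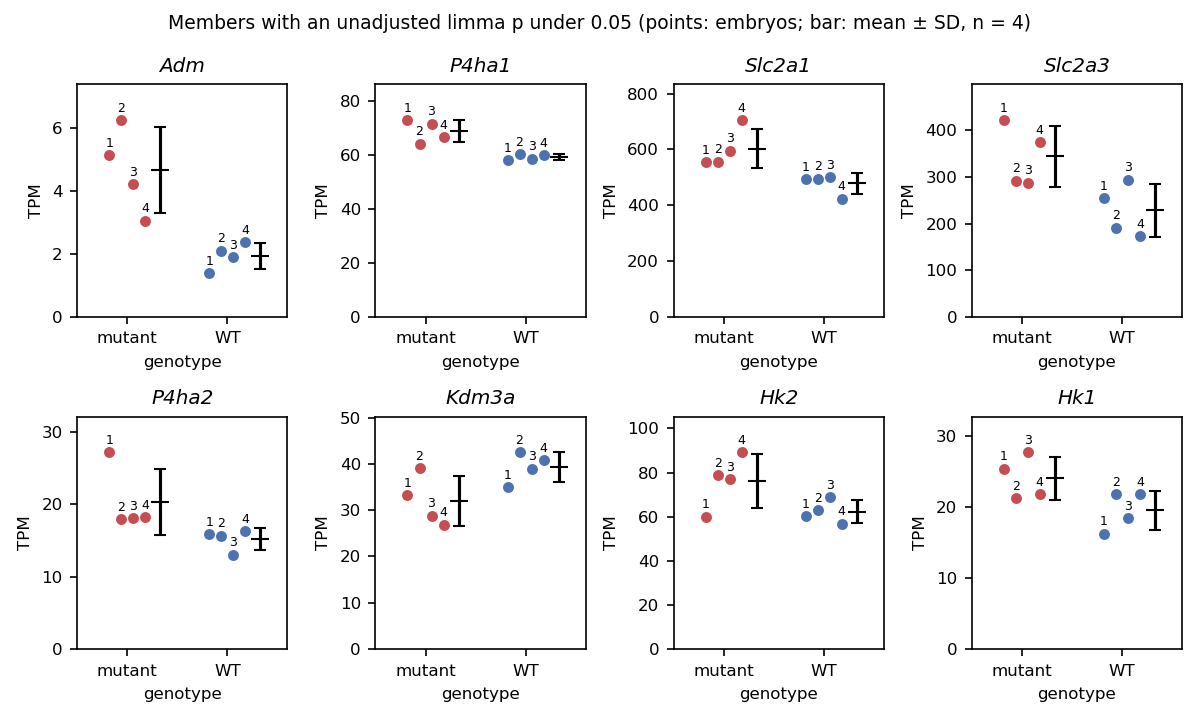
TPM of the 8 members with an unadjusted limma p under 0.05, in the order of p, for the 4 mutant embryos (red, left) and the 4 WT embryos (blue, right), numbered as in the labels; bars give mean ± SD. The groups are separate for Adm, P4ha1, Slc2a1 and P4ha2 and overlap for the others, and mutant 1 lies apart in P4ha2 at 27.2 TPM.

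Phosphofructokinase, the committed step of glycolysis, is built from 3 isoforms whose log2 fold changes lay on both sides of 0. Pfkl, the liver form and the most abundant here, was at 182, 212, 199 and 248 TPM in mutants 1 to 4 and at 207, 191, 213 and 169 TPM in WT 1 to 4, a log2 fold change of 0.10 that was 0.17 without mutant 1, 0.02 without mutant 4 and 0.04 without WT 4. Pfkm, the muscle form, was at 49.2, 53.7, 47.3 and 51.2 TPM in mutants and at 52.7, 55.4, 52.3 and 53.6 TPM in WT. It was the glycolytic member with a negative log2 fold change, -0.09 ± 0.05 (SE; limma adjusted p = 0.457), with 3 of 4 mutants below every WT embryo. Pfkp, the platelet form, was at 6.98, 5.20, 4.52 and 4.07 TPM in mutants and at 4.01, 4.27, 3.43 and 3.91 TPM in WT, with its highest value in mutant 1. The log2 fold change of Pfkp was 0.32 with all embryos, 0.19 without mutant 1, 0.52 without mutants 3 and 4 and 0.11 without mutants 1 and 2. Exons of Pfkp overlap those of Pitrm1 on the opposite strand, whose mean was 115.8 TPM, and exons of Pfkm overlap those of Senp1 (27.7 TPM), so shared reads cannot be told apart by strand. Gpi1, which isomerizes glucose 6-phosphate, differed little, with a mean of 259 ± 20.4 TPM in mutants and 247 ± 13.7 TPM in WT (SD, n = 4 each).

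The enzymes from triose phosphate to lactate, Aldoc apart, were among the most abundant transcripts of the embryo and did not separate the genotypes. Their log2 fold changes ran from 0.01 for Pkm, pyruvate kinase, through 0.04 for Pgam1, phosphoglycerate mutase, 0.06 for Gapdh, glyceraldehyde 3-phosphate dehydrogenase, and 0.08 for Eno1, enolase, to 0.12 for Pgk1, phosphoglycerate kinase. That of Pgk1 was 0.05 without mutant 4 and 0.07 without WT 4. Ldha, which makes lactate, was at 1843, 2038, 2159 and 2552 TPM in mutants 1 to 4 and at 2133, 1975, 2201 and 1762 TPM in WT 1 to 4, a log2 fold change of 0.09 with a 95% confidence interval of -0.15 to 0.32. The interval for Pkm ran from -0.22 to 0.24. Tpi1, triose phosphate isomerase, averaged 931 ± 93.8 TPM in mutants and 873 ± 52.8 TPM in WT (SD, n = 4 each; log2 fold change 0.09). For Eno1, Pkm and Gapdh the lowest of the 8 embryos was mutant 1 and the highest mutant 4, so that the genotype means hide a spread among mutants as wide as the whole range. Aldoc, the aldolase of brain, was far less abundant, at 5.48, 4.57, 3.46 and 6.98 TPM in mutants and at 3.75, 3.73, 4.30 and 2.89 TPM in WT, a log2 fold change of 0.37 ± 0.18 (SE; limma adjusted p = 0.394) that was 0.23 without mutant 4. Aldoa, the aldolase of most tissues, was listed in the table as 2 numbered entries and is not counted among the 33 genes. The larger entry was at 1188, 1187, 1252 and 1471 TPM in mutants and at 1275, 1193, 1254 and 1084 TPM in WT, and the smaller at 3.55 to 7.57 TPM in mutants and 6.58 to 8.27 TPM in WT. Gapdh, Pgk1, Pgam1, Eno1 and Ldha have processed copies elsewhere in the genome, and the rule for counting reads that match several places is not known. Eno1b, a near copy of Eno1, was listed at 1.20 to 4.11 TPM.

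The abundant enzymes varied together from embryo to embryo. Mutant 4 was the highest of the 8 embryos in all 9 of Gpi1, Pfkl, Tpi1, Gapdh, Pgk1, Pgam1, Eno1, Pkm and Ldha, a set named after its values were seen. WT 4 was the lowest in 6 of them and mutant 1 in the other 3. Over the 16 glycolytic members tested, mutant 4 was highest in 12 and WT 4 lowest in 10. The glycolytic genes with both Aldoa entries took 1.39%, 1.47%, 1.52% and 1.80% of all TPM in mutants 1 to 4 and 1.52%, 1.44%, 1.53% and 1.31% in WT 1 to 4. The highest and lowest shares therefore each stood in 1 embryo, one of each genotype, and the other 6 lay between 1.39% and 1.53%. Without mutant 4, 10 of 16 glycolytic log2 fold changes were positive, and those of Gapdh, Pgam1, Eno1, Pkm and Ldha turned negative (-0.02, -0.02, -0.01, -0.085 and -0.001).

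**Figure D3:**
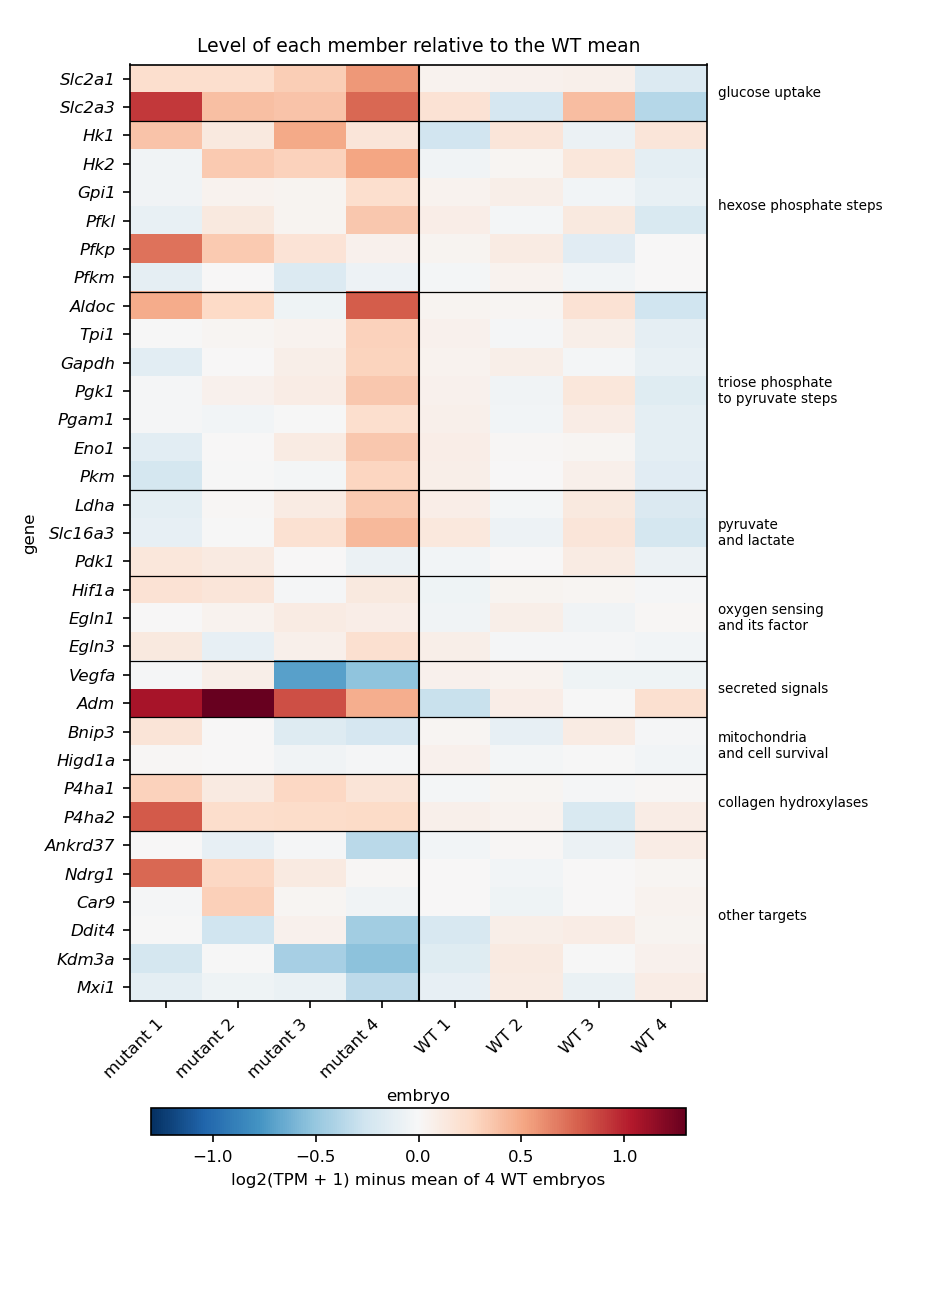
Log2(TPM + 1) of the 33 members found (rows, grouped by role) in each embryo (columns, mutants left, WT right), relative to the mean of the 4 WT embryos. The column of mutant 4 is above the WT mean from Slc2a1 to Slc16a3 with the exception of Pfkm and low for Vegfa, Kdm3a, Ddit4 and Mxi1, and Adm is high in all mutants.

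Slc16a3 and Pdk1 act where glycolysis ends. Slc16a3, which exports lactate, was at 101, 107, 124 and 145 TPM in mutants 1 to 4 and at 119, 103, 121 and 92.0 TPM in WT 1 to 4, with the same extremes, mutant 4 and WT 4, as the abundant enzymes. The log2 difference of 0.13 became 0.20 without mutant 1, 0.03 without mutant 4, 0.05 without WT 4 and -0.06 without mutants 3 and 4. Pdk1, a kinase that keeps pyruvate out of the mitochondrion, averaged 42.4 ± 3.06 TPM in mutants and 40.9 ± 2.39 TPM in WT (SD, n = 4 each; log2 fold change 0.05, 95% confidence interval -0.10 to 0.20).

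The 3 oxygen-sensing genes among the members lay close together in the genotypes. Hif1a was at 108, 106, 94.0 and 104 TPM in mutants 1 to 4 and at 91.1, 97.5, 96.7 and 94.0 TPM in WT 1 to 4. Mutants 1, 2 and 4 lay above every WT embryo and mutant 3 lay among them, and the log2 difference came to 0.12 ± 0.05 (SE; limma adjusted p = 0.382), 0.17 with mutants 1 and 2 alone and 0.06 with mutants 3 and 4 alone. Egln1, the main prolyl hydroxylase that marks HIF for destruction, was at 73.7, 75.6, 79.0 and 77.7 TPM in mutants and at 70.9, 77.4, 71.0 and 74.2 TPM in WT. Its log2 fold change was 0.06, with a 95% confidence interval of -0.05 to 0.17. Egln3, a related hydroxylase that HIF itself induces, was at 15.6, 13.1, 14.9 and 16.5 TPM in mutants and at 14.9, 13.98, 13.96 and 13.8 TPM in WT, a log2 fold change of 0.08 with an interval of -0.11 to 0.26. Among hypoxia response genes outside the list, Vhl averaged 41.03 TPM in mutants and 46.04 TPM in WT, without overlap. Its log2 fold change was -0.16 (limma adjusted p = 0.313). Epas1 averaged 16.6 TPM in mutants and 10.5 TPM in WT, with overlap. Its log2 fold change was 0.59 (limma adjusted p = 0.300). Egln2, Arnt, Hif1an and Hif3a also overlapped between genotypes. Hif1a transcript level says nothing of HIF protein, which is controlled mainly by its destruction.

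The secreted signals lay on opposite sides of 0. Adm (chromosome 7, 110627661 to 110629820), which encodes adrenomedullin, a peptide that acts on vessels and lymphatics, was at 5.12, 6.25, 4.21 and 3.05 TPM in mutants 1 to 4 and at 1.38, 2.10, 1.90 and 2.36 TPM in WT 1 to 4. Every mutant lay above every WT embryo. These values rested on 94 to 184 reads in mutants and 42 to 73 reads in WT. The mean was 4.66 ± 1.36 TPM in mutants and 1.94 ± 0.415 TPM in WT (SD, n = 4 each), a ratio of 2.41 and a log2 fold change of 0.93 ± 0.19 on the scale of TPM + 1 (SE; limma adjusted p = 0.270; two-sided exact permutation p = 0.0286, as for every gene whose groups are separate). The log2 fold change of Adm was 1.19 with mutants 1 and 2 alone and 0.66 with mutants 3 and 4 alone. With the yolk sac score in the model, which partly follows genotype, it was 0.59. Markers of trophoblast and decidua, the embryo's side and the mother's side of the placenta, summed to 90.4, 340.3, 53.5 and 28.6 TPM in mutants 1 to 4 and 39.5, 20.5, 32.2 and 19.2 TPM in WT 1 to 4, and 6 of the 10 were above 0 in every embryo; their part in the levels of Adm and Slc2a3 was not tested. Vegfa (chromosome 17, 46016993 to 46032369), which drives vessel growth, was at 37.4, 40.0, 22.8 and 26.1 TPM in mutants and at 39.5, 39.2, 36.5 and 36.5 TPM in WT. Mutants 1 and 2 lay near WT and mutants 3 and 4 below every WT embryo. The log2 fold change of Vegfa was -0.29 ± 0.16 (SE; limma adjusted p = 0.425), -0.15 without mutant 3, 0.03 with mutants 1 and 2 alone and -0.62 with mutants 3 and 4 alone. Mutants 3 and 4 are also the libraries low in host transcripts of small nucleolar RNAs, and the part of this in the level of Vegfa was not tested.

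Both collagen prolyl 4-hydroxylases were higher in every mutant than in any WT embryo. P4ha1 (chromosome 10, 59323296 to 59373304), the main catalytic subunit of the enzyme that stabilizes collagen, was at 72.8, 64.0, 71.5 and 66.5 TPM in mutants 1 to 4 and at 57.9, 60.2, 58.5 and 59.9 TPM in WT 1 to 4. The groups did not overlap, and all 4 WT values lay between 57.9 and 60.2 TPM. It differed by 0.21 ± 0.05 on the log2 scale (SE; limma adjusted p = 0.281), and by 0.20 with mutants 1 and 2 alone and 0.22 with mutants 3 and 4 alone. P4ha2 (chromosome 11, 54100095 to 54131665), another catalytic subunit, was at 27.2, 17.9, 18.03 and 18.2 TPM in mutants and at 15.9, 15.7, 13.04 and 16.3 TPM in WT. Mutant 1 stood apart, the other mutants lay between 17.9 and 18.2 TPM, and all lay above WT. The log2 fold change of P4ha2 was 0.38 ± 0.14 (SE; limma adjusted p = 0.317), and 0.24 without mutant 1. It was 0.52 with mutants 1 and 2 alone and 0.24 with mutants 3 and 4 alone.

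Of the remaining HIF targets, Ndrg1 was higher in some mutants and the regulators of chromatin and growth had lower means. Ndrg1, a stress-induced gene also expressed in trophoblast, was at 9.90, 6.83, 6.06 and 5.57 TPM in mutants 1 to 4 and at 5.50, 5.35, 5.52 and 5.61 TPM in WT 1 to 4. Among mutants the same order, mutant 1 highest and mutant 4 lowest, held for the summed yolk sac markers. WT 3, at 398 TPM of these markers, lay above mutants 3 and 4 (361 and 289 TPM), but its Ndrg1 level lay below theirs. The log2 difference of Ndrg1, 0.29 with all embryos, was 0.14 without mutant 1, 0.07 without mutants 1 and 2 and -0.02 with the yolk sac score in the model. That score partly follows genotype, so the part of the yolk sac in the level of Ndrg1 cannot be told apart from genotype. Kdm3a (chromosome 6, 71588972 to 71632990), a histone demethylase, was at 33.3, 39.0, 28.8 and 26.9 TPM in mutants and at 35.0, 42.5, 39.0 and 40.8 TPM in WT. Mutants 1, 3 and 4 lay below every WT embryo, and the log2 difference came to -0.30 ± 0.11 (SE; limma adjusted p = 0.327). Kdm3a was at -0.12 with mutants 1 and 2 alone and at -0.48 with mutants 3 and 4 alone. Ddit4, an inhibitor of mTOR signalling, averaged 65.4 ± 10.5 TPM in mutants and 72.9 ± 6.92 TPM in WT, and Mxi1, an antagonist of MYC, 11.3 ± 1.08 TPM in mutants and 12.6 ± 1.07 TPM in WT (SD, n = 4 each). Their log2 fold changes were -0.16 and -0.15, with 95% confidence intervals of -0.42 to 0.10 and -0.36 to 0.06. Without mutant 4 they were -0.07 for Ddit4 and -0.09 for Mxi1. Ankrd37, an ankyrin repeat gene, was at -0.12, and at -0.04 without mutant 4, and its exons overlap those of Ufsp2 on the opposite strand (22.3 TPM). Bnip3, a receptor for the removal of mitochondria, was at -0.05, and Higd1a, a protein of the inner mitochondrial membrane, had the smallest coefficient of variation among mutants (1.65%), at 71.6, 71.0, 68.9 and 70.3 TPM in mutants and at 74.0, 69.7, 70.9 and 69.3 TPM in WT (log2 fold change -0.01, 95% confidence interval -0.11 to 0.09). Car9, a membrane carbonic anhydrase strongly induced by HIF in many tissues, was at 0.464, 0.835, 0.500 and 0.433 TPM in mutants and at 0.485, 0.421, 0.484 and 0.523 TPM in WT, from 18 to 35 reads per library, and was not tested.

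**Figure D4:**
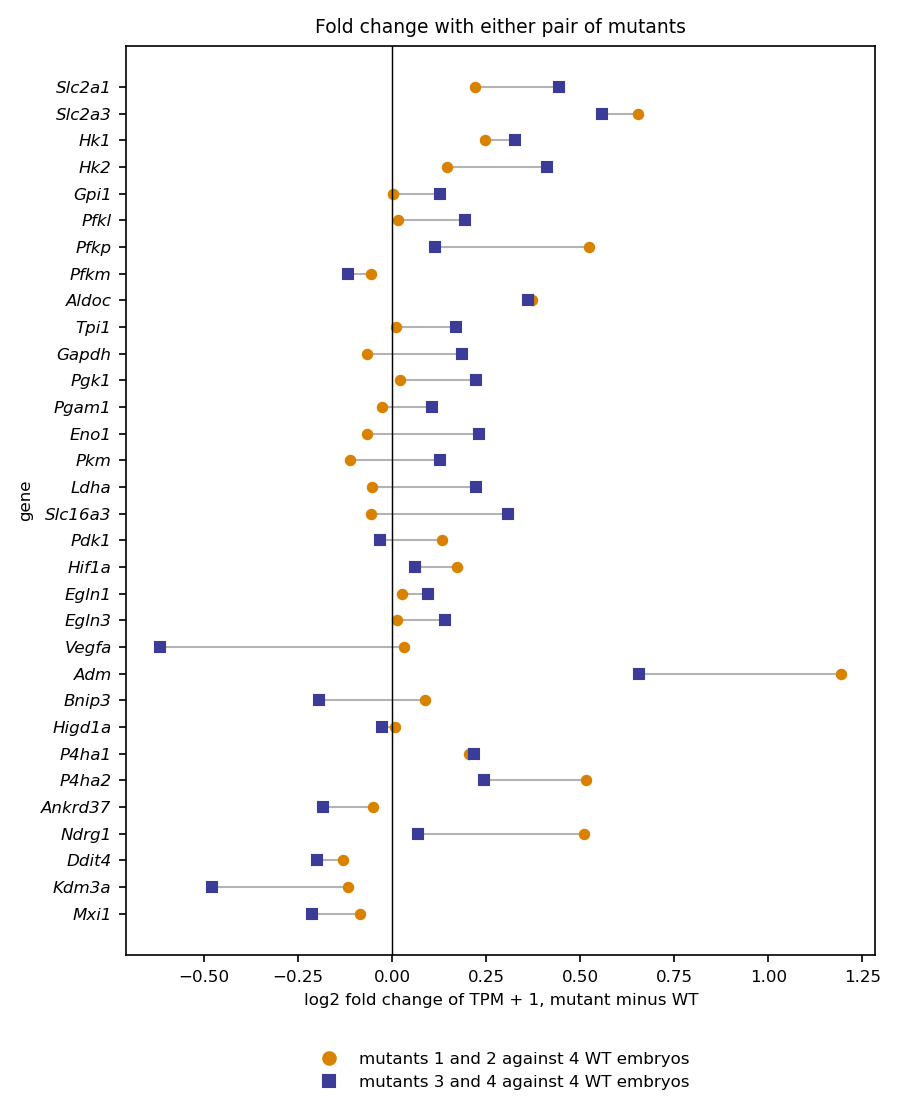
Log2 fold change of TPM + 1, mutant minus WT, for mutants 1 and 2 alone (orange circles) and mutants 3 and 4 alone (blue squares), each against the 4 WT embryos, for the 32 members tested. P4ha1 is at 0.20 and 0.22 with the pairs, the abundant glycolytic enzymes and Slc16a3 lie further right with mutants 3 and 4, and Vegfa is at 0.03 with one pair and -0.62 with the other.

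The pairs of mutants gave different pictures of the list. With mutants 1 and 2 alone against WT, 9 members were higher and 0 lower at an unadjusted p under 0.05, against 9.93% and 2.65% of all genes. With mutants 3 and 4 alone, 9 were higher and 3 lower, against 5.41% and 33.5% of all genes. With mutants 3 and 4 alone limma called 3369 genes at an adjusted p under 0.05, 3087 of them lower. Among members it called Slc2a1, Hk2, Adm and P4ha1 higher (4 of 32, against 2.07% of all genes) and Vegfa and Kdm3a lower (2 of 32, against 22.7%). With mutants 1 and 2 alone limma called 3 genes (0.0221%), none of them a member. Both fits were chosen after the data were seen, and they share the 4 WT embryos. The pairs were formed by likeness of the embryos in these same data, which lowers the spread within a pair. The p-values of these fits can therefore be too small, and the calls do not measure the effect of genotype.

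Shares among the listed members of gene families do not move with the scaling of a library. They overlapped between genotypes, and none of 6 passed the exact permutation test (two-sided, Benjamini-Hochberg over 6 shares, smallest adjusted p = 0.429). Slc2a3 made up 43.2%, 34.4%, 32.6% and 34.7% of the summed TPM of Slc2a1 and Slc2a3 in mutants 1 to 4 and 33.96%, 27.9%, 36.9% and 28.97% in WT 1 to 4, so that the highest share stood in mutant 1. Hk2 made up 75.7 ± 4.67% of the 2 hexokinases in mutants and 76.02 ± 3.31% in WT (SD, n = 4 each). Pfkp was 2.00 ± 0.669% of phosphofructokinase transcripts in mutants and 1.56 ± 0.208% in WT. Aldoc was 0.396 ± 0.0900% of aldolase transcripts in mutants and 0.301 ± 0.0317% in WT, with both Aldoa entries in the sum. P4ha2 was 22.7 ± 3.09% of the summed TPM of P4ha1 and P4ha2 in mutants and 20.4 ± 1.53% in WT. Egln3 was 16.4 ± 1.36% of the summed TPM of Egln1 and Egln3 in mutants and 16.2 ± 0.936% in WT. Egln2, which is not a member, averaged 77.9 TPM in mutants and 81.9 TPM in WT and was left out of this share. In mutant 1 alone Slc2a3, Pfkp and P4ha2 each had their highest share, at 43.2%, 2.93% and 27.2%.

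**Figure D5:**
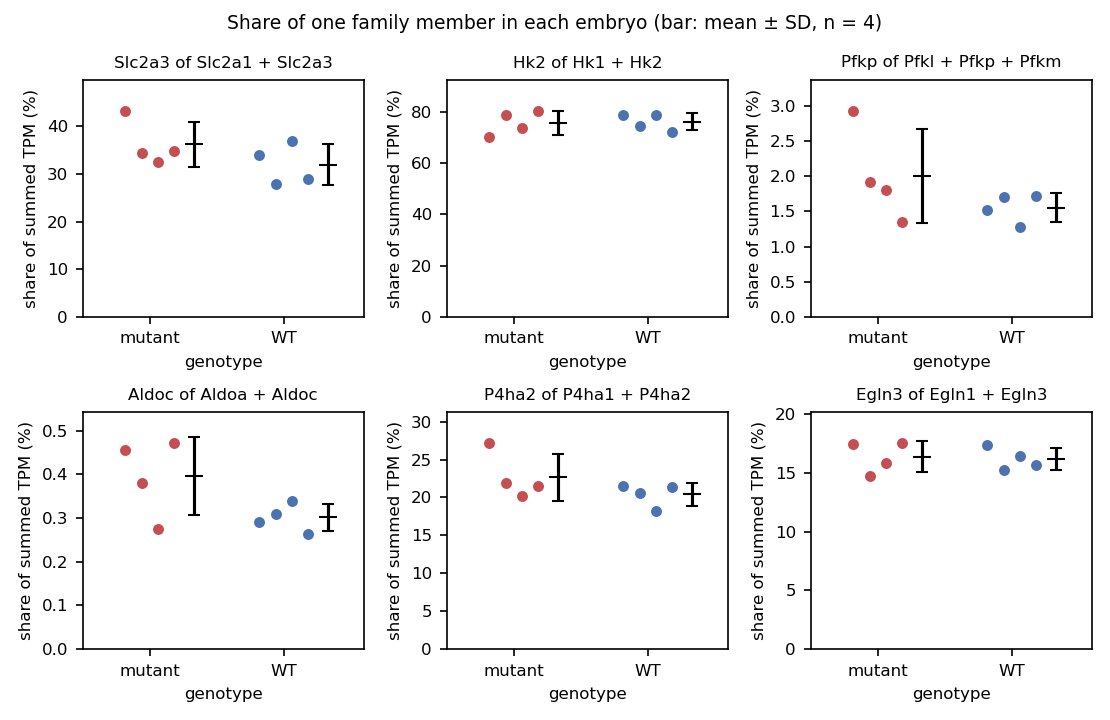
Share of 1 gene in the summed TPM of the listed members of its family, in percent. Points are mutant embryos (red, left) and WT embryos (blue, right), and bars give mean ± SD. The groups overlap in all 6 panels, and the highest points for Slc2a3, Pfkp and P4ha2 are those of mutant 1.

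Spread within a genotype was wider among mutants for most members. The coefficient of variation was larger in mutants for 28 of 32 members tested (87.5%), close to the 81.6% of all genes tested. Its median over members was 12.7% in mutants and 6.93% in WT, against 12.8% and 6.41% over all genes. The tested members of widest spread in mutants were Adm (29.2%), Aldoc (29.1%), Ndrg1 (27.4%) and Vegfa (26.7%), and of these Vegfa and Ndrg1 varied by only 4.35% and 1.97% in WT.

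Other genes of the same pathways were read from lists of carbohydrate metabolism and of the hypoxia response that share no gene with the members. None passed the adjusted threshold. Of 33 carbohydrate genes tested, 8 were higher and 1 lower at an unadjusted p under 0.05 (24.2% and 3.03%), and of 36 hypoxia response genes 9 were higher and 4 lower (25.0% and 11.1%), against 5.55% and 8.0% of all genes. These lists, like the members, were chosen with earlier results of these data known, so their shares are not independent of those results. Slc2a2 and Trf in these lists are also yolk sac markers, and Flt1 is also an endothelial marker. Cited2, a coregulator induced by HIF that limits its activity, was at 128, 128, 133 and 129 TPM in mutants 1 to 4 and at 101, 105, 115 and 106 TPM in WT 1 to 4, a log2 fold change of 0.28 ± 0.05 (SE; limma adjusted p = 0.203), with no overlap of the groups. Loxl2, which crosslinks collagen, averaged 109 ± 10.4 TPM in mutants and 85.3 ± 6.19 TPM in WT, and Flt1, a receptor for VEGF, 7.03 ± 0.727 TPM in mutants and 5.14 ± 0.429 TPM in WT (SD, n = 4 each), both without overlap (limma adjusted p = 0.281 for each). Of the 36 hypoxia response genes, 3 were higher without overlap and 2 lower, Vhl and Angptl4. Of the 33 carbohydrate genes, 1 was higher without overlap and 0 lower, against 3.63% and 3.82% of all genes. Angptl4 averaged 8.65 TPM in mutants and 10.5 TPM in WT (log2 fold change -0.25; limma adjusted p = 0.328). The 10 endothelial markers summed to 242 to 329 TPM in mutants and 219 to 259 TPM in WT, and their part in the level of Flt1 was not tested.

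The lactate genes outside the list differed in direction. Slc16a1, a lactate carrier, was at 154, 145, 147 and 176 TPM in mutants 1 to 4 and at 123, 118, 148 and 110 TPM in WT 1 to 4, a log2 fold change of 0.32 ± 0.09 (SE; limma adjusted p = 0.284). Ldhb, the dehydrogenase subunit that favours the use of lactate, was at 112, 106, 112 and 69.3 TPM in mutants and at 148, 182, 111 and 182 TPM in WT, a log2 fold change of -0.63 ± 0.19 (SE; limma adjusted p = 0.291). WT 3 lay among the mutants for both genes. Arnt2, a partner of HIF alpha subunits expressed mainly in neural tissue, was at 24.7, 31.8, 24.1 and 28.0 TPM in mutants and at 30.7, 38.4, 33.5 and 33.5 TPM in WT (log2 fold change -0.32; limma adjusted p = 0.299). The 10 neural tube markers summed to 366 to 661 TPM in mutants and 570 to 850 TPM in WT, and their part in the levels of Arnt2 was not tested.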

How the data were processed

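RNA of 8 whole embryos was sequenced with the TruSeq RNA Sample Prep v2 kit, per the labels' protocols. The authors deposited 1 table of TPM values per gene symbol and embryo, on build GRCm38 per the submitters' processing notes; of aligner, counter and annotation release, each is not given in the sources used here. Read numbers were recovered from the TPM steps with GENCODE exon lengths: they were whole (tolerance 0.02) in all 8 libraries for 22464 of 22992 genes with a value and 1 length (97.7%). Genes with at least 1 TPM in at least 4 embryos (13596) were tested as log2(TPM + 1) with limma 3.58.1 (R 4.3.3), trend on, 4 mutants against 4 WT, p adjusted by Benjamini-Hochberg. The fit was tested on simulated data. Single values and family shares were compared by two-sided exact permutation over 70 assignments of embryos (smallest p 0.0286). The same-numbered embryos share only a number. The members and lists were chosen with earlier results of these data known. Values in every embryo are given for members with an unadjusted p under 0.05 or with separate groups, for the 6 families with shares and for Hif1a; Ldha, Slc16a3, Vegfa, Ndrg1, Higd1a and Car9 were added after their values were seen. Of other pathway genes, the 6 of lowest p are named, and Vhl, Angptl4, Epas1, Egln2, Arnt, Hif1an and Hif3a were added after their values were seen. Positions are from GENCODE on GRCm38, promoters from RefSeq on GRCm38.p6. Alternatives were another pseudocount, filters, scalings, weights, a replicate block, each embryo left out, either mutant pair left out, a yolk sac covariate, and limma voom on recovered reads.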

Additional observations from a re-analysis of the deposited data

Results flagged for a closer look

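In 5 of 82 groups of 4 embryos, 1 embryo lay so far from the others that its gap exceeded Dixon's critical value at the 95% level; chance alone gives about 5% of groups. Slc2a1 was at 423.33 TPM in WT 4, against 494 to 501 TPM in the other WT embryos. Tpi1 was at 1070.3 TPM in mutant 4, against 869 to 897 TPM in the other mutants. Pgam1 was at 2237.9 TPM in mutant 4, against 1878 to 1915 TPM in the other mutants. P4ha2 was at 27.177 TPM in mutant 1, against 17.9 to 18.2 TPM in the other mutants. Car9 was at 0.83529 TPM in mutant 2, where the remaining mutants had 0.433 to 0.500 TPM. Car9 was below the level needed for testing.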

How the results depend on the processing

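Over all alternatives, 607 of 637 values of single members kept their direction and side of the adjusted threshold, 24 values in 11 members changed sign, and 6 passed the threshold, all without mutants 1 and 2. The number of genes called was 0 to 1 with any embryo left out, 3 without mutants 3 and 4, 3369 without mutants 1 and 2 and 0 under the others; the 1 gene appeared without mutant 2. At an unadjusted p under 0.05, 11 members were higher with median-ratio scaling, which moved the median of all genes to 0.002, against 7 as reported and 5 to 8 with an embryo left out. Over all genes, 2128 had such a p in either direction with median-ratio scaling, against 1842 as reported. Those lower numbered 2 with array weights, 0 without mutants 3 and 4, 3 without mutants 1 and 2, 3 with the yolk sac covariate and 0 to 2 with an embryo left out. Members whose mutants all lay above WT numbered 7 with median-ratio scaling and 9 without either mutant pair (4 to 6 with an embryo left out). Members whose mutants all lay below WT numbered 4 without mutants 1 and 2 and 0 to 2 with an embryo left out. Leaving embryos out can only add to these counts of members without overlap. The share of all genes without overlap was not computed under these settings, so the counts are not read as results about the members. The median of other HIF targets was 0.104 with median-ratio scaling, 0.015 without mutants 1 and 2, -0.022 with the yolk sac covariate and 0.1 with voom (0.03 to 0.061 with an embryo left out). That of glycolytic members was 0.021 to 0.161 with an embryo left out. The cause of these shifts was not tested.

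The log2 fold changes that changed sign included those of Vegfa (-0.294 with all embryos) and Ndrg1 (0.289). Higd1a was at 0.039 with median-ratio scaling, 0.006 scaled without mitochondrial genes, 0.009 without WT 1, 0.006 without mutants 3 and 4 and 0.033 with voom. Without mutant 4 the values were -0.019 for Gapdh, -0.021 for Pgam1, -0.009 for Eno1, -0.085 for Pkm, -0.001 for Ldha and 0.002 for Bnip3. Without WT 4 they were -0.002 for Pgam1 and -0.043 for Pkm. With any embryo left out, the other ends of the ranges were 0.125 for Gapdh, 0.071 for Pgam1, 0.155 for Eno1, 0.083 for Pkm, 0.155 for Ldha and -0.128 for Bnip3. Without mutants 3 and 4 they were -0.068 for Gapdh, -0.027 for Pgam1, -0.067 for Eno1, -0.113 for Pkm, -0.053 for Ldha, -0.056 for Slc16a3, 0.03 for Vegfa and 0.086 for Bnip3. Pdk1 was at -0.034 without mutants 1 and 2 and -0.125 with the yolk sac covariate, and Ndrg1 at -0.017 with that covariate. The share of Hk2 differed by 1.48 percentage points without mutant 1, 0.409 without mutant 3, 0.558 without WT 1, 0.626 without WT 3 and 0.871 without mutants 1 and 2, and by -1.88 at the other end, without mutant 4. That of Egln3 differed by -0.149 without mutant 1, -0.176 without mutant 4, -0.0952 without WT 2 and -0.0928 without mutants 3 and 4, and by 0.761 at the other end, without mutant 2.

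With the replicate number as a block, 0 genes were called, 6 members were higher and 1 lower. Same-numbered embryos did not deviate together, with correlations of -0.062, 0.04, -0.194 and -0.245 for numbers 1 to 4, so they share only a number. The members with the fewest reads were Car9, with 18 to 35 per library, and Adm, with 42 to 184. Aldoc had 180 to 434 reads and Ankrd37 191 to 271.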
